A study of Mus musculus with 4 samples.

Results

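The 9 genes described here encode regulators of transcription in meiotic and haploid male germ cells: *Mybl1*, *Rfx2*, *Rfx3*, *Brdt*, *Crem*, *Fhl5*, *Sox30*, *Sox5* and *Tbpl1*. They were chosen by name, and all 9 were found among the 12415 genes with exon sense reads in the table. Their reads on the sense strand of exons, and on either strand of introns, were compared between testes of *Nef-sp*-/- and *Nef-sp*+/- mice. NEF-sp is a 3′ to 5′ exoribonuclease of the testis, and the comparison asks how the RNA of the testis differs when it is lost.

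Total RNA of whole testis was sequenced from adult mice at postnatal day 60, in 2 *Nef-sp*-/- and 2 *Nef-sp*+/- libraries. All mice were of the C57Bl/6J background and carried the same null allele, an out-of-frame deletion of 23 bp made with Cas9 nickase and a pair of guide RNAs. The knockout mice carried it on both chromosomes. The controls were heterozygous, so no library of these came from a wild-type mouse. The deletion was carried in the germline and was therefore present in germ cells and somatic cells alike. The labels do not say whether the libraries of a genotype came from separate animals, so the p-values measure the spread between these libraries, which may be partly technical.

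The libraries were depleted of ribosomal RNA and kept the strand of each RNA. Between 20659865 and 34442517 reads were counted per library, with the highest total in *Nef-sp*+/- replicate 2. *Nef-sp*-/- libraries are also called knockouts below, and *Nef-sp*+/- libraries heterozygotes. *Nef-sp* itself (2610020H08Rik) had normalized exon sense counts of 407 and 497 in knockouts versus 1843 and 1693 in heterozygotes, being lower in both knockouts. Normalized counts are reads divided by the effective size of the library (TMM, edgeR) relative to its mean over the 4 libraries. The tissue label was checked against marker genes. Of the markers listed for spermatids and for spermatocytes, 9 of 9 and 6 of 7 had enough reads to be tested, and their summed normalized counts were between 367545 and 456389 and between 23332 and 25205 per library. The spermatid sum, most of it from *Prm1*, *Prm2*, *Tnp1*, *Tnp2* and *Odf1*, was lowest in *Nef-sp*+/- replicate 1. In whole testis, a smaller number of cells of a type and a smaller amount of RNA per cell cannot be told apart.

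Spermatogenesis runs from mitotic spermatogonia through meiotic spermatocytes to haploid spermatids, and each step has its own transcription program. MYBL1 (A-MYB) starts the program of pachytene spermatocytes, including genes of the piRNA pathway, and RFX2 and RFX3 bind the X-box of genes for cilia and flagella. After meiosis, CREM switches on genes of the sperm chromatin and tail together with its coactivator FHL5 (ACT), before transcription stops as the spermatid nucleus condenses.

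For none of the 9 genes did exon sense reads pass the test between the genotypes. With edgeR's quasi-likelihood test, 0 of 9 had an adjusted p below 0.05, against 0.00932% of the 10728 genes tested, where the 1 gene called was *Nef-sp*. Before adjustment, 0 of 9 had a p below 0.05, where 4.8% of all genes tested did. DESeq2 also called 0 of 9. Log2 fold changes, knockout over heterozygote, ran from -0.18 for *Sox30* to 0.04 for *Fhl5*, with a median of -0.05 (3 above 0 and 6 below), beside -0.0002 over all genes tested. The median size of the change, regardless of sign, was 0.05 for the 9 genes and 0.07 for all genes tested. The libraries of the genotypes did not overlap for 4 of the 9, *Mybl1*, *Rfx2*, *Brdt* and *Sox5*, each lower in *Nef-sp*-/-. Of all 10728 genes tested, 34.5% did not overlap, with 18.1% lower and 16.4% higher in *Nef-sp*-/-.

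**Figure D1:**
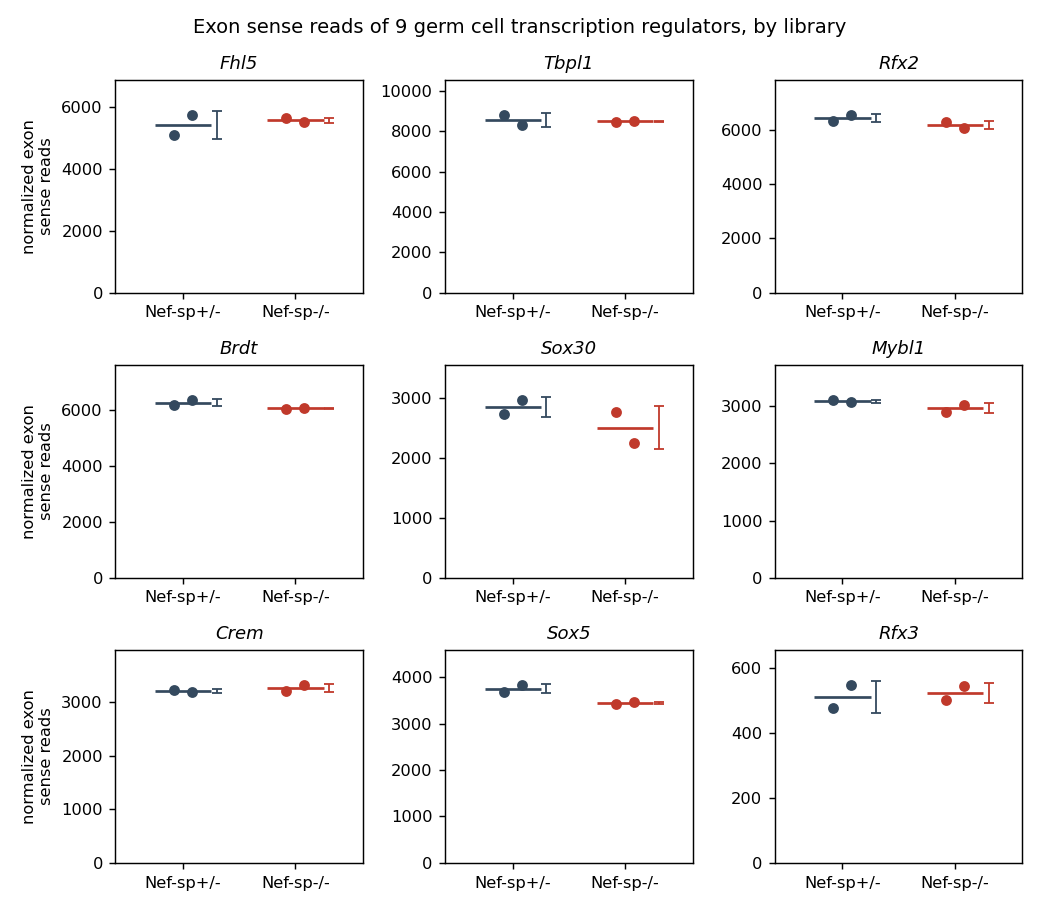
Normalized exon sense reads of the 9 genes, a panel for each gene, with the *Nef-sp*+/- libraries in dark blue and the *Nef-sp*-/- libraries in red. Points are libraries, horizontal lines are means and bars beside them are SD (n = 2), and each vertical axis starts at 0. The points of both genotypes lie close together in every panel, with the widest spread relative to the mean in *Sox30*, between 2249 and 2755 in *Nef-sp*-/-.

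*Mybl1* lies on chromosome 1 of mm9, from 9657496 to 9690290 on the minus strand. Its counts after normalization were 2906 and 3024 in knockouts versus 3104 and 3067 in heterozygotes. Both knockouts were below both heterozygotes. Means were 2965 ± 84.0 in knockouts and 3086 ± 25.9 in heterozygotes (SD, n = 2 each), giving a log2 fold change of -0.06 (SE 0.0582, edgeR adjusted p = 0.956 over 10728 genes). Its 95% interval ran from -0.19 to 0.07, or from 87.9% to 105% of the level in the controls.

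*Rfx2* lies on chromosome 17, from 56915320 to 56970431 on the minus strand, and encodes the RFX factor most needed in spermatids. Its normalized counts were 6260.4 and 6058 in knockouts versus 6312 and 6526 in heterozygotes. The genotypes did not overlap, but the lower *Nef-sp*+/- library was close to the higher *Nef-sp*-/- library. Means were 6159 ± 143 in knockouts and 6419 ± 151 in heterozygotes (SD, n = 2 each), giving a log2 fold change of -0.06 (SE 0.0584, edgeR adjusted p = 0.956), with a 95% interval from -0.19 to 0.07.

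*Rfx2* is known as a gene activated by MYBL1, so its promoter is shown with that of *Piwil1*, another gene of the MYBL1 program. Both are RefSeq sequences of GRCm38.p6 from 250 bases before to 50 bases after the annotated start, and are printed 5′ to 3′ on the strand of the gene. Capitals mark matches on either strand to GGCNGTT, a form of the site bound by MYB proteins. The *Rfx2* promoter spans chr17:56830959-56831258 (minus strand) and the *Piwil1* promoter chr5:128735996-128736295 (plus strand).
Rfx2: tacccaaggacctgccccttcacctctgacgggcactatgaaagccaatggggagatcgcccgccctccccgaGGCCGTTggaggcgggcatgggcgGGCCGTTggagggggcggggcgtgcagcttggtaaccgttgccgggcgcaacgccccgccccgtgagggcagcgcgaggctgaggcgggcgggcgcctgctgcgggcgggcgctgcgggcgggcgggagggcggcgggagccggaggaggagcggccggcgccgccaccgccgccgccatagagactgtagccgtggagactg
Piwil1: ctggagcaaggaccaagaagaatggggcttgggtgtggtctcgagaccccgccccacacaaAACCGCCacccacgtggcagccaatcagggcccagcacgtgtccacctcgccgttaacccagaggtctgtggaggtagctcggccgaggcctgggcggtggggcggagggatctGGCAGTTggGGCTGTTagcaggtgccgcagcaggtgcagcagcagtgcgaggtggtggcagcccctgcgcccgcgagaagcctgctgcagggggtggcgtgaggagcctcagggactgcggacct

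The *Rfx2* promoter has 2 matches, which begin 177 and 153 bases before the start. The *Piwil1* promoter has 3, which begin 189, 75 and 66 bases before it, the first of them on the opposite strand. Of all 32851 RefSeq promoters of this length, 12.1% hold the motif. RefSeq promoters were matched for 7 of the 9 genes (8 promoters, as *Fhl5* has 2), without *Crem* and *Mybl1*, and among them only *Rfx2* had a match. The palindromic cAMP response element TGACGTCA, bound by CREM, was found in none of the 8 and in 1.79% of all promoters. The SOX core AACAAT was found in 1 of the 8, a promoter of *Fhl5*, and in 10.7% of all promoters. The X-box was found in none of the 8 and in 1.29% of all promoters. Of 23 promoters of target genes of these regulators, named below, 5 held the MYB motif and 3 the SOX core. The cAMP response element was in 0 of the 23 and the X-box in 1, so absence of a match says little about binding. Both strands were searched, and overlaps between motifs were not counted. A match describes the sequence only, and neither *Mybl1*, *Rfx2* nor *Piwil1* passed the test.

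*Rfx3* had by far the fewest reads of the 9 genes. It lies on chromosome 19, from 27836211 to 28085656 on the minus strand, and encodes an RFX factor of ciliated cells. Normalization gave counts of 500.0 and 543 in knockouts versus 475 and 546 in heterozygotes, and the genotypes overlapped. Means were 521.6 ± 30.4 in knockouts and 510.5 ± 49.8 in heterozygotes (SD, n = 2 each), giving a log2 fold change of 0.02 (SE 0.0891, edgeR adjusted p = 0.99) with a 95% interval from -0.18 to 0.22.

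*Brdt* encodes a testis-specific member of the BET family, whose paired bromodomains bind acetylated histone H4. The gene lies on chromosome 5, from 107760178 to 107816077 on the plus strand. Its normalized reads numbered 6057 and 6062 in knockouts versus 6183 and 6349 in heterozygotes. The *Nef-sp*-/- libraries nearly coincided and lay below both controls. Means were 6059 ± 3.22 in knockouts and 6266 ± 118 in heterozygotes (SD, n = 2 each), giving a log2 fold change of -0.05 (SE 0.0571, edgeR adjusted p = 0.956), with a 95% interval from -0.17 to 0.08.

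*Crem* produces repressors in many tissues, and in spermatids an activator isoform, CREMτ. It lies on chromosome 18, from 3266046 to 3337746 on the minus strand. Its normalized counts were 3199 and 3305 in knockouts versus 3223 and 3182 in heterozygotes. The genotypes overlapped. Means were 3252 ± 74.9 in knockouts and 3202 ± 29.0 in heterozygotes (SD, n = 2 each), giving a log2 fold change of 0.02 (SE 0.0576, edgeR adjusted p = 0.986), and the 95% interval was -0.10 to 0.15. The exon reads do not separate activator from repressor isoforms.

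The genes most like *Crem* over the 4 libraries were *Mtmr6*, *Cct6b* and *Sec13*, by the root mean square difference of centered log2 counts, which was 0.0014, 0.0031 and 0.0039. Of all genes tested, 24.8% were within 0.05 of *Crem* by this measure, so likeness to *Crem* was common among these genes.

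*Fhl5* encodes the LIM-only protein ACT, which activates CREM without the usual phosphorylation. The gene lies on chromosome 4, from 25127055 to 25170023 on the minus strand. Normalization gave counts of 5629 and 5503 in knockouts versus 5101 and 5733 in heterozygotes. Both *Nef-sp*-/- libraries lay between the *Nef-sp*+/- libraries. Means were 5566 ± 88.7 in knockouts and 5417 ± 447 in heterozygotes (SD, n = 2 each), giving a log2 fold change of 0.04 (SE 0.0675, edgeR adjusted p = 0.968) with a 95% interval from -0.11 to 0.19.

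*Sox30* showed the largest difference of the 9 genes in exon sense reads. SOX30 is a SOX factor of male germ cells needed for the haploid program, and its gene lies on chromosome 11, from 45793812 to 45831496 on the plus strand. The normalized counts were 2755 and 2249 in knockouts versus 2723 and 2955 in heterozygotes. Replicate 2 of *Nef-sp*-/- was low, while replicate 1 lay between the controls. Means were 2502 ± 358 in knockouts and 2839 ± 164 in heterozygotes (SD, n = 2 each), giving a log2 fold change of -0.18 (SE 0.0884, edgeR adjusted p = 0.954). The 95% interval ran from -0.38 to 0.01, or from 76.9% to 101% of the control level. Without *Nef-sp*-/- replicate 2 the log2 fold change was -0.04, and without *Nef-sp*-/- replicate 1 it was -0.34.

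*Sox5* had the smallest p of the 9 genes in exon sense reads. The testis makes a short SOX5 isoform in spermatids, and the gene lies on chromosome 6, from 143776945 to 144730497 on the minus strand. Its normalized reads numbered 3424 and 3456 in knockouts versus 3677 and 3819 in heterozygotes. Both *Nef-sp*-/- libraries were lower than both controls. Means were 3440.2 ± 22.7 in knockouts and 3748 ± 100.2 in heterozygotes (SD, n = 2 each), giving a log2 fold change of -0.12 (SE 0.0576, edgeR adjusted p = 0.954). Its 95% interval ran from -0.25 to 0.003, or from 84.0% to 100.2% of the control level.

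*Tbpl1* encodes TRF2, a relative of the TATA-binding protein that does not bind the TATA box and is needed for spermatids to condense their chromatin. It had the most reads of the 9 genes and lies on chromosome 10, from 22423685 to 22451744 on the minus strand. Its normalized counts were 8465 and 8498 in knockouts versus 8789.5 and 8307 in heterozygotes, and the *Nef-sp*-/- libraries lay between the controls. Means were 8482 ± 23.3 in knockouts and 8548 ± 341 in heterozygotes (SD, n = 2 each), giving a log2 fold change of -0.01 (SE 0.0594, edgeR adjusted p = 0.99). The 95% interval of -0.14 to 0.12 spans 90.6% to 109% of the control level.

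The members thus had 95% intervals that reached no lower than -0.38 and no higher than 0.22 on the log2 scale. These intervals come from the fit and cover the spread between 2 libraries per genotype. Together the 9 genes took 0.208% and 0.207% of the exon sense reads of the *Nef-sp*-/- libraries and 0.217% and 0.216% of those of the *Nef-sp*+/- libraries. These shares use raw totals. With TMM the summed counts lay closer, at 39196 and 38699 in knockouts versus 39587 and 40483 in heterozygotes, and the sum was not tested. In coding transcripts, only *Rfx3* and *Sox5* shared any stretch of 50 bases with annotated coding transcripts of other genes, at 0.0614% and 0.0732% of their stretches. Perfectly matching reads could thus seldom come from a coding transcript of another gene. Pseudogenes, noncoding transcripts and repeats were not searched.

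**Figure D2:**
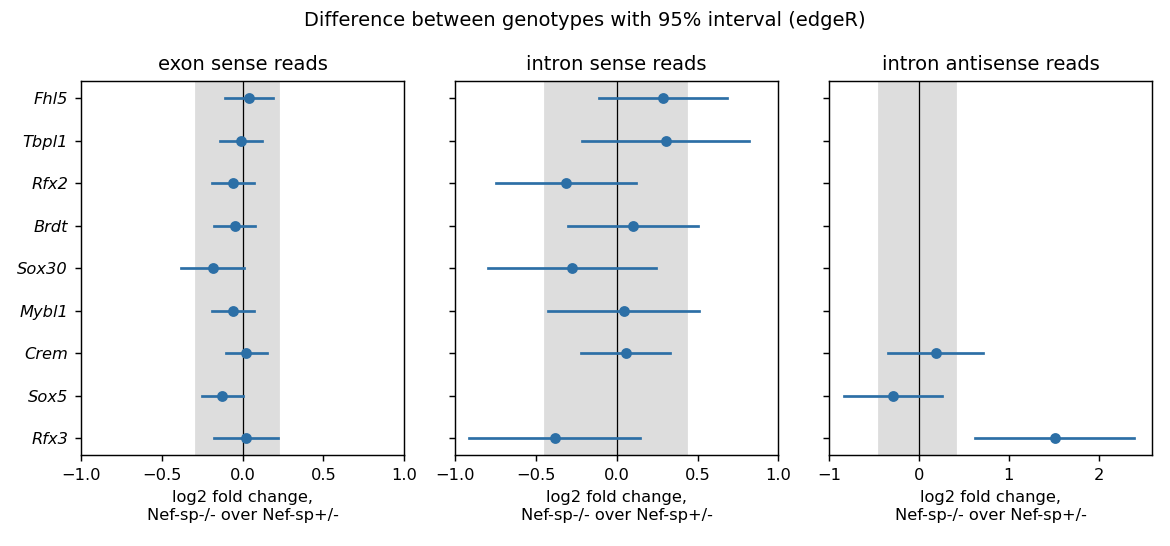
Log2 fold change, knockout over heterozygote, for each gene in exon sense, intron sense and intron antisense reads, where tested. Points are estimates, lines are 95% intervals from edgeR, and gray bands run from the 5th to the 95th percentile of all features tested in the category. All intervals cross 0 except that of *Rfx3* intron antisense reads, from 0.63 to 2.39, whose edgeR adjusted p was 0.969. That feature passed the expression filter only through the knockouts, where it was higher. The third panel has a wider axis.

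The genes differed widely in level. Levels are given as RPKM, here exon sense reads per kb of annotated exon scaled to the exon sense total of the library, with the union of GENCODE vM1 exons as the length, and as means ± SD over the 4 libraries. *Fhl5* was highest at 252 ± 9.22, followed by *Tbpl1* at 139.7 ± 5.38, *Rfx2* at 100.7 ± 3.52, *Brdt* at 64.7 ± 1.90 and *Sox30* at 47.8 ± 5.40 (SD, n = 4 each). *Mybl1* at 30.2 ± 1.26 and *Crem* at 29.2 ± 0.698 came next and their ranges over the libraries overlapped, although *Mybl1* was above *Crem* in each of the 4. *Sox5* had a level of 13.4 ± 0.801 and *Rfx3* of 2.51 ± 0.146. All other neighbors in this order had no overlap between any of the 4 libraries of one and those of the other.

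Among the 11414 genes with a length, *Fhl5* stood at the 97.8th percentile of this level, *Rfx2* at the 93.4th, *Crem* at the 80.3rd and *Rfx3* at the 40.4th. The order depends on the length used. *Crem* has 41 annotated transcripts with 5937 bp of exon in all, and with its longest transcript of 2931 bp its level was 59.1, above *Mybl1* at 32.6 and *Sox30* at 47.8. For *Sox5*, the longest transcript has 7243 bp of the 14376 bp of all exons, and the level was 26.6. The ratio of the highest to the lowest level was 100.3 with all exons and 83.1 with the longest transcripts.

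Intron sense reads, which include unspliced RNA, were listed for 8 of the 9 genes and not analysed here for *Sox5*. None of the 8 passed the test (0 of 8, against 0.0294% of 3403 features tested), and none had an unadjusted p below 0.05, against 2.35% of all. DESeq2 called 0 of 8 as well. The log2 fold change ran from -0.38 for *Rfx3* to 0.30 for *Tbpl1*, with SEs between 0.133 and 0.254. These ends moved with single libraries, *Rfx3* to -0.15 without *Nef-sp*-/- replicate 1 and -0.69 without *Nef-sp*-/- replicate 2, and *Tbpl1* to 0.16 without *Nef-sp*-/- replicate 2. The median was 0.05 (5 above 0 and 3 below), beside 0.01 over all intron sense features tested. The genotypes did not overlap for 5 of the 8, *Crem*, *Tbpl1* and *Fhl5* higher and *Rfx3* and *Sox30* lower in *Nef-sp*-/-, where 28% of all features tested did not overlap (13.5% higher and 14.5% lower).

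*Crem* stood out by its intron reads. It had normalized intron sense counts of 1562 and 1543 in knockouts versus 1458 and 1528 in heterozygotes. Both *Nef-sp*-/- libraries were slightly higher, with a log2 fold change of 0.06 (SE 0.133, edgeR adjusted p = 0.9996 over 3403 features). For every 100 exon sense reads, *Crem* had 47.4 and 50.2 intron sense reads in knockouts versus 46.5 and 45.9 in heterozygotes. Among 2862 genes with at least 10 reads of both kinds in every library, this ratio ranked 206th from the top, against a median of 3.74. Per kb, the introns of *Crem* had 4.27% of the reads of its exons. The exon set behind the counts is not given in the sources used here, so reads from exons of *Crem* absent from it would count as intronic.

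In the other genes with intron rows, introns gave few reads. *Tbpl1* had between 0.390 and 0.599 intron sense reads per 100 exon sense reads, and *Rfx2*, *Mybl1*, *Sox30*, *Fhl5* and *Brdt* had between 1.13 and 2.11. *Rfx3* was higher, from 5.54 to 9.93, but this ratio does not allow for intron length. Per kb, the introns of *Rfx3* had 0.369% of the reads of its exons, close to the 0.354% of *Mybl1*. *Rfx2*, *Sox30*, *Tbpl1*, *Fhl5* and *Brdt* had between 0.0454% and 0.148%. The ratio per 100 exon sense reads did not overlap between genotypes for *Crem*, *Tbpl1* and *Fhl5*, each higher in *Nef-sp*-/-. How many of all 2862 genes lacked overlap in this ratio was not counted, so these genes cannot be set apart from the rest. Lack of overlap was common in normalized intron sense counts, at 28% of features tested. The ratio uses raw counts, which leaned the same way over all features tested. Scaled by library size over all categories, the median log2 fold change was 0.036 for intron sense features and -0.023 for exon sense features. By an exact permutation test (two-sided), p was 0.33 for *Crem*, *Tbpl1* and *Fhl5* alike, which is the minimum with 2 libraries per genotype, or 0.67 adjusted over the 8 genes. The mean ratios of *Fhl5* were 1.83 ± 0.387 and 1.48 ± 0.0774 (SD, n = 2 each), and those of *Tbpl1* 0.524 ± 0.105 and 0.411 ± 0.0298.

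**Figure D3:**
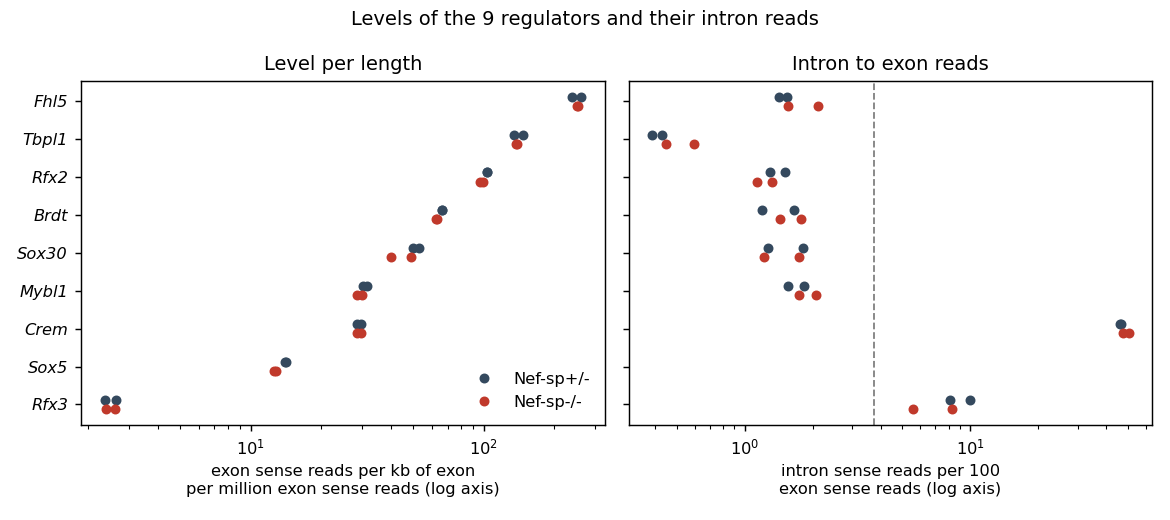
Left, level as RPKM from exon sense reads, and right, intron sense reads per 100 exon sense reads, both on log axes, with a point for each library (*Nef-sp*+/- in dark blue, *Nef-sp*-/- in red). The dashed line marks the median ratio of 3.74 over 2862 genes. *Fhl5* and *Rfx3* are the ends of the order of levels, and *Crem* lies far to the right of the other genes in intron reads.

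Intron antisense reads were listed for 5 of the genes, and *Crem*, *Rfx3* and *Sox5* had enough to be tested. None of the 3 had an adjusted p below 0.05, and none of the 1421 features tested had one (0% called by edgeR and also 0 by DESeq2). Before adjustment, p was below 0.05 for 1 of the 3, *Rfx3*, where 4.5% of all features had one. *Rfx3* was also the 1 of the 3 without overlap between genotypes, higher in *Nef-sp*-/-, beside 32.7% of all features in either direction and 15.6% higher. Its feature passed the expression filter only through the knockouts, where it was higher, so its p and lack of overlap are not support for a difference. For *Crem*, the normalized counts of 39.1 and 38.6 in knockouts versus 39.6 and 30.3 in heterozygotes overlapped, with a log2 fold change of 0.19 (SE 0.257). Those of *Sox5* were 33.4 and 33.9 in knockouts versus 31.5 and 47.3 in heterozygotes and also overlapped, with a log2 fold change of -0.28 (SE 0.264).

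*Rfx3* intron antisense reads numbered 22 and 15 in knockouts versus 5 and 12 in heterozygotes. Normalized, these were 25.3 and 17.5 against 5.83 and 8.46, so both *Nef-sp*-/- libraries were above both controls. The log2 fold change was 1.51 (SE 0.427, 95% interval 0.63 to 2.39, edgeR adjusted p = 0.969 over 1421 features). The feature passed the expression filter through the knockouts, the genotype in which it was higher, since both heterozygotes were below the filter's level. Over the alternatives it stayed between 1.23 and 1.85 and did not pass the threshold, and it was not tested where 10 counts were required in every library. DESeq2 gave 1.56, and did not call it either.

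The sense reads of its introns had a log2 fold change of the opposite sign that did not pass the test. *Rfx3* had 24 and 38 intron sense reads in knockouts versus 41 and 63 in heterozygotes, or normalized counts of 28.6 and 41.8 against 46.0 and 46.4 (log2 fold change -0.38, SE 0.254, or -0.15 without *Nef-sp*-/- replicate 1). The antisense share of its intron reads was 47.8% and 28.3% in knockouts versus 10.9% and 16.0% in heterozygotes. Summed over libraries, 37 of 99 intron reads were antisense in *Nef-sp*-/- (37.4%, Wilson 95% interval 28.5 to 47.2) and 17 of 121 in *Nef-sp*+/- (14.0%, 8.96 to 21.4). These intervals cover counting error only and leave out the spread between libraries. The *Rfx3* share uses the same antisense reads that passed the filter through the knockouts, so it is not support for a difference either. Lack of overlap in this share was not particular to *Rfx3*. *Rfx2* was also higher in both knockouts (summed, 6.47% against 3.21%), and *Brdt* was lower in both (4.60% against 9.22%), each from few antisense reads. *Crem* overlapped. Lack of overlap in this share over all genes was not counted. The annotation places a pseudogene, RP24-92P15.2, and a processed transcript, RP24-92P15.1, on the opposite strand within *Rfx3*, with 440 and 598 bp of exon in its introns. The positions of the antisense reads were not analysed here.

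*Rfx2* and *Brdt* had too few intron antisense reads for the test. *Rfx2* had 4 and 5 reads in knockouts versus 2 and 5 in heterozygotes, and *Brdt* 3 and 5 against 8 and 12. *Brdt* was the only one of the 9 with listed exon antisense reads, 24 and 12 in knockouts versus 30 and 35 in heterozygotes. Normalized, these were 27.7 and 14.3 against 34.6 and 24.5, with a log2 fold change of -0.43 (SE 0.322, edgeR adjusted p = 0.999 over 1008 exon antisense features).

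**Figure D4:**
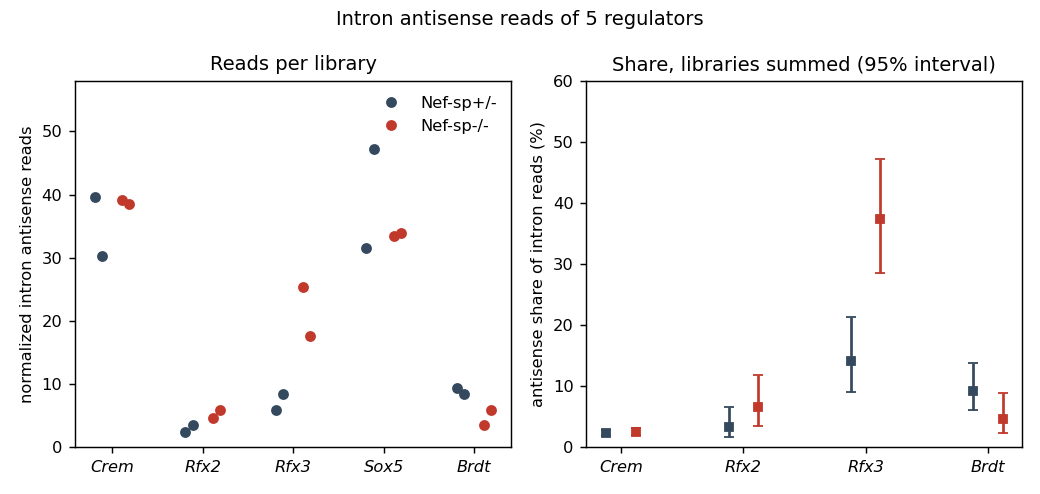
Left, normalized intron antisense reads per library for the 5 genes with such reads. Right, antisense share of the intron reads of both strands in percent, libraries of a genotype summed, with Wilson 95% intervals (*Nef-sp*+/- in dark blue, *Nef-sp*-/- in red, *Sox5* without sense row left out). The share for *Rfx3* was 37.4% in knockouts and 14.0% in heterozygotes. For *Rfx2* it was 6.47% and 3.21%, and for *Brdt*, in the other direction, 4.60% and 9.22%. The intervals cover counting error only, and the *Rfx3* antisense reads passed the expression filter only through the knockouts.

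Other members of the same protein families were read in the same way. Of 19 listed relatives, 14 were tested, 0 passed the threshold with all 4 libraries, and 2 had an unadjusted p below 0.05. The median log2 fold change was 0.02, with 8 above 0 and 6 below. *Rfx1*, an RFX factor of many tissues, had the lowest value, with normalized counts of 1179 and 908 in knockouts versus 1272 and 1339 in heterozygotes (log2 fold change -0.32, edgeR adjusted p = 0.954). Both *Nef-sp*-/- libraries were lower. Without *Nef-sp*+/- replicate 1 the log2 fold change was -0.36, in a fit that rests on 1 control library. *Rfx7* had the highest value, 0.25 (edgeR adjusted p = 0.954).

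*Fhl4*, a LIM-only gene of the testis, had by far the highest level per length of the family, 1744 ± 49.5 against 252 ± 9.22 for *Fhl5* (SD, n = 4 each), and *Fhl1* and *Fhl2* had levels of 1.91 and 2.58 in the same unit. Among BET genes, *Brd2* had a level of 81.7 ± 1.55, above the 64.7 ± 1.90 of *Brdt*, and *Mybl2* had 0.719 ± 0.026, far below *Mybl1*. The log2 fold changes of *Fhl4*, *Brd2* and *Mybl2* between genotypes were 0.08, 0.03 and 0.10, none past the threshold.

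Partners of these regulators showed no called difference either. Of 13 listed genes, 12 were tested and 0 passed, with a median log2 fold change of 0.003 and 1 unadjusted p below 0.05, that of *Gtf2b* (highest, 0.16, edgeR adjusted p = 0.954). *Gtf2b* encodes the general factor TFIIB, and the lowest value was -0.20 for *Crtc3*, a coactivator of CREB proteins. *Kif17*, the kinesin known to carry ACT out of the nucleus, had normalized counts of 7154 and 6128 in knockouts versus 6126 and 7637 in heterozygotes. *Gtf2a1l*, the germ cell form of a TFIIA subunit that pairs with TRF2, had 8353 and 8064 against 8243 and 8005, and both genes overlapped between genotypes.

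Genes known to depend on CREM were all above 0, but the value rested on 1 control library. All 7 listed (*Prm1*, *Prm2*, *Tnp1*, *Tnp2*, *Odf1*, *Smcp* and *Akap4*, for sperm chromatin, tail and mitochondrial capsule) had a log2 fold change above 0, with a median of 0.17 beside -0.0002 for all genes tested, and 0 passed the threshold. The values ran from 0.08 for *Smcp* to 0.20 for *Akap4*, and 2 of the 7 had an unadjusted p below 0.05, *Tnp1* and *Akap4*. Normalized counts of *Tnp1*, a transition protein, were 74026 and 72979 in knockouts versus 60173 and 69754 in heterozygotes (log2 fold change 0.18, edgeR adjusted p = 0.954). *Akap4*, a fibrous sheath gene, had 81758 and 81016 against 62670 and 78571, and *Prm2*, a protamine, 123193 and 123966 against 96587 and 130662.

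In each of the 7 genes, *Nef-sp*+/- replicate 1 was the lowest library. Without it the median was 0.02, with 4 above 0 and 3 below and 0 called. Without *Nef-sp*+/- replicate 2 in its place, the median was 0.35 and 7 of 7 were called, when 252 genes were called in all. The summed spermatid markers, of which 5 are also in this list, were 367545 in *Nef-sp*+/- replicate 1 and between 443907 and 456389 in the other libraries. Most of that sum came from the shared genes, so it is not a separate measure of spermatid content. Outside them, *Tssk1* and *Tssk2* were also lowest in *Nef-sp*+/- replicate 1, and *Acrv1* and *Spaca1* were not. The part of spermatid content in the result was not tested. *Crem* itself did not share the pattern of these 7 genes, with 3223 in *Nef-sp*+/- replicate 1 and between 3182 and 3305 in the others.

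Genes of the MYBL1 program (7 listed, 6 tested) had a median log2 fold change of 0.01, 3 above 0 and 3 below, and 0 called. The lowest was *Piwil1*, which encodes the Piwi protein of pachytene piRNAs, with 5767 and 6457 in knockouts versus 6934 and 6544 in heterozygotes (-0.14, edgeR adjusted p = 0.954), and the highest was *Ccna1* at 0.04. Ciliary and flagellar genes of the RFX program (7 listed, 7 tested) had a median of 0.03, 5 above 0 and 2 below, and 0 called, from -0.04 for *Ift88* to 0.13 for *Bbs4*. Of 3 genes listed for SOX30, only *Ccdc54* was tested, at 0.06 on the log2 scale (edgeR adjusted p = 0.956).

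**Figure D5:**
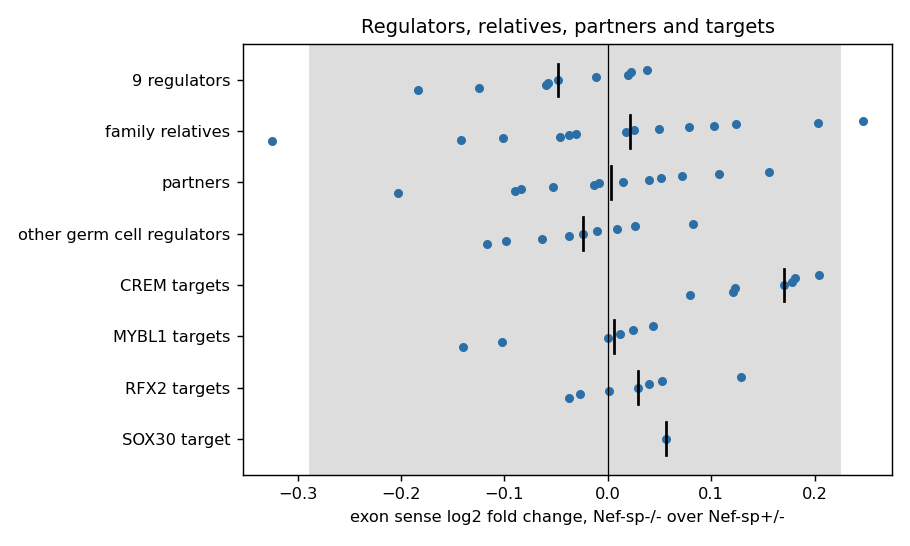
Exon sense log2 fold change, knockout over heterozygote, for the 9 genes and the lists of relatives, partners, other germ cell regulators and targets. Points are genes, black bars are medians, and the gray band runs from the 5th to the 95th percentile of all 10728 genes tested (-0.29 to 0.22). The CREM targets have a median of 0.17, which is 0.02 without *Nef-sp*+/- replicate 1, and the medians of the other lists lie between -0.05 and 0.06.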

How the data were processed

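The authors trimmed the 3′ adapter, aligned reads to mm9 by in-house software, discarded reads with mismatches, and deposited raw counts per feature, annotation category and strand. Software versions and the treatment of multiply matching reads are not given in the sources used here. Further columns hold the authors' DESeq2 comparison (normalized mean, fold change, p and adjusted p) and were not used. All 4 library columns were matched by the code in the sample labels.

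Exon sense, intron sense and intron antisense counts were each fitted over all features with edgeR 4.0.16 in R 4.3.3 (TMM, expression filter with a minimum count of 10, quasi-likelihood test without covariates, Benjamini-Hochberg adjustment within the category, threshold 0.05). Total counts were 20659865 to 34442517 per library. DESeq2 1.42.0 served as an alternative, as did other scalings and filters, a replicate block and leaving out each library. Intervals are at 95%. Lengths, positions and overlaps are from GENCODE vM1 on mm9, and promoters from RefSeq on GRCm38.p6. A symbol absent from the table was looked up among RefSeq synonyms.

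The 9 genes and the gene lists were chosen with earlier results of these data known. All 9 are named, as are the lowest and highest gene of a list, members with low p, and further list members chosen after their values were seen. The crossed replicate block and the lists without each library were chosen after seeing the data. Figures were drawn with matplotlib 3.10.9.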

Additional observations from a re-analysis of the deposited data

How the results depend on the processing

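Over the 9 genes, 157 of 159 values under other scalings, filters, tools and blocks kept their direction and their side of the threshold, and 71 of 80 did when a library was left out. No value of the 9 genes passed the threshold in any of them. The log2 fold change turned to -0.0018 for *Crem* and -0.0022 for *Rfx3* exon sense reads with the library size over all categories in place of TMM. When a library was left out, values changed sign within ranges of -0.065 to 0.13 for *Rfx3*, -0.051 to 0.031 for *Tbpl1* and -0.042 to 0.13 for *Fhl5* exon sense reads, -0.10 to 0.22 for *Mybl1* and -0.084 to 0.25 for *Brdt* intron sense reads, and -0.031 to 0.36 for *Crem* and -0.49 to 0.093 for *Sox5* intron antisense reads.

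The number of exon sense features called was 1, 2 with DESeq2, and between 1 and 252 with a library left out (252 without *Nef-sp*+/- replicate 2 and 41 without *Nef-sp*+/- replicate 1). For intron sense it was 1, and 0 with the library size over all categories, without an expression filter or with a single fit over all categories. For intron antisense it was 0, and between 0 and 3 with a library left out (3 without *Nef-sp*+/- replicate 2). Causes were not tested. The labels do not say that same-numbered libraries were processed together. With the replicate number as a block, 1 exon sense, 1 intron sense and 0 intron antisense features were called. Deviations of same-numbered libraries correlated at -0.09, -0.15 and -0.11 in these categories, and a fit with crossed numbers, added after the data were seen, called 99, 2 and 0. The ratio of the highest to the lowest level was 83.1 with the longest transcripts. The median intron to exon ratio of 8 genes, 1.59 per 100, became 53.0 when each count was scaled to the total of its own category, which rescales all genes alike. Outside *Crem*, the genes had 24 to 140 intron sense reads per library, and the SE of their log2 fold changes was 0.19 to 0.25, so that differences of the sizes seen in exons were not detectable in introns at this depth.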

Other observations

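Of 12 other regulators of germ cell transcription, 9 were tested and 0 passed the threshold in edgeR, with 0 at an unadjusted p below 0.05 and a median log2 fold change of -0.02. *Tcfl5*, a basic helix-loop-helix gene of spermatocytes, had normalized counts of 8973 and 8463 in knockouts versus 8493 and 8632 in heterozygotes. *Nr6a1*, which encodes the germ cell nuclear factor, had the highest value of the list, 0.08, with 7243 and 7428 against 6769.7 and 7085. *Kdm3a*, a histone demethylase needed for *Tnp1* and *Prm1*, is listed as *Jmjd1a* and had a log2 fold change of 0.01. *Ovol1* had the lowest value, -0.12.

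Of the marker lists, 0 genes passed the threshold in edgeR with all 4 libraries. Medians of the log2 fold change were 0.05 for spermatogonia (4 of 6 tested), -0.0002 for spermatocytes (6 of 7), 0.12 for spermatids (9 of 9), -0.09 for Sertoli cells (4 of 7), 0.05 for Leydig cells (6 of 6), -0.07 for myoid cells (3 of 4), 0.09 for macrophages (3 of 4) and -0.26 for blood (2 of 3). Before adjustment, p was below 0.05 for *Cyp11a1* (log2 fold change -0.35, edgeR adjusted p = 0.859) and *Cyp17a1* (-0.27, edgeR adjusted p = 0.954) among Leydig cell markers, both enzymes of steroid synthesis, and for *Tnp1* among spermatid markers. For all 3, the *Nef-sp*-/- libraries lay on 1 side of both controls. Of the 6 Leydig cell markers, 4 had a log2 fold change above 0 and 2, *Cyp11a1* and *Cyp17a1*, below. Without *Nef-sp*+/- replicate 1, the values of *Cyp11a1* and *Cyp17a1* were -0.29 and -0.24. Without *Nef-sp*+/- replicate 2 they were -0.40 and -0.30, and each of these fits rests on 1 control library. The list medians above depended on single libraries. With each library left out in turn, the median ran from -0.16 to -0.084 for Leydig cells, below 0 each time, from -0.15 to 0.14 for spermatogonia, from -0.075 to 0.064 for spermatocytes, from -0.17 to 0.049 for Sertoli cells and from -0.085 to 0.086 for macrophages. It stayed below 0 for myoid cells (-0.26 to -0.044) and blood (-0.37 to -0.052), and for spermatids it was between 0.0018 without *Nef-sp*+/- replicate 1 and 0.24 without *Nef-sp*+/- replicate 2. The lowest and highest genes were *Dmrt1* (-0.14) and *Uchl1* (0.14) for spermatogonia, *Dmc1* (-0.15) and *Spo11* (0.07) for spermatocytes, *Spaca1* (-0.03) and *Odf1* (0.18) for spermatids, *Sox9* (-0.24) and *Cldn11* (0.05) for Sertoli cells, *Cyp11a1* and *Insl3* (0.18) for Leydig cells, *Acta2* (-0.16) and *Cnn1* (-0.02) for myoid cells, *Csf1r* (-0.08) and *Mrc1* (0.11) for macrophages, and *Hbb-b1* (-0.75) and *Alas2* (0.23) for blood.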
